A study of Mus musculus with 28 samples.

Results

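The lysyl oxidases and lysyl hydroxylases were followed through remodeling of the mouse arteriovenous fistula (AVF), in which the end of the jugular vein is joined to the side of the carotid artery and the vein then carries arterial flow. The 8 members were named as 2 gene families, with earlier results of these data known: the oxidases *Lox*, *Loxl1*, *Loxl2*, *Loxl3* and *Loxl4* and the hydroxylases *Plod1*, *Plod2* and *Plod3*, out of 56980 genes in the bulk count table. All 8 were among the 12673 genes that passed the filter on low counts.

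All mice, the controls included, were male or female C57BL/6 animals that had undergone 5/6 nephrectomy, which leaves a fraction of the renal mass, and received an AVF 3 to 4 weeks later. Bulk RNA sequencing covered 7 contralateral jugular veins (5 from females, 2 from males), 8 early AVFs (3 female, 5 male; near day 3), 5 mid AVFs (3 female, 2 male; near day 10) and 5 late AVFs (3 female, 2 male; near day 21), with 1 vessel per library. Age is not stated. The study's methods give a wider spread of harvest days for the early bulk AVFs than for the mid and late ones. The contralateral veins came from operated animals with reduced renal mass and are not veins of healthy mice, and nothing ties a given vein to an AVF of the same animal. Single-cell RNA sequencing added 1 library each of pooled contralateral veins, early AVFs and late AVFs.

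Collagen and elastin gain their strength from covalent bonds between chains, and both gene families act on lysine residues to build them. Lysyl hydroxylases, the products of the *Plod* genes, work inside the endoplasmic reticulum: PLOD1 modifies mainly the helical part of collagen, PLOD2 the telopeptides at the chain ends, and PLOD3 also adds sugars to hydroxylysine. Lysyl oxidases are copper-dependent enzymes that work mostly outside the cell, where they turn lysine and hydroxylysine into aldehydes that then react into crosslinks. LOX is secreted as a proenzyme and cleaved by BMP1-type proteinases. LOXL1 is tied to elastic fibers, and LOXL2, LOXL3 and LOXL4 carry scavenger receptor domains in place of a LOX-type propeptide and act on basement membrane and fibrillar collagens.

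The members lie at separate places in the genome (GRCm38, GENCODE M21): *Lox* (ENSMUSG00000024529) at chr18:52516067-52529867 on the minus strand, *Loxl1* (ENSMUSG00000032334) at chr9:58287738-58313186 on the minus strand, *Loxl2* (ENSMUSG00000034205) at chr14:69609068-69695834 on the plus strand and *Loxl3* (ENSMUSG00000000693) at chr6:83034173-83052562 on the plus strand. *Loxl4* (ENSMUSG00000025185) is at chr19:42593982-42612813 on the minus strand, *Plod1* (ENSMUSG00000019055) at chr4:147909753-147936767 on the minus strand, *Plod2* (ENSMUSG00000032374) at chr9:92542223-92608428 on the plus strand and *Plod3* (ENSMUSG00000004846) at chr5:136987019-136996648 on the plus strand. Whether reads were counted by strand is not given in the sources used here, so reads from genes on the opposite strand cannot be told apart where exons overlap. *Htra2* covers 11.6% of the exon bases of *Loxl3*, *Znhit1* 11.7% of those of *Plod3*, *Gm38391* 6.42% of those of *Plod2* and *Gm27177* 5.57% of those of *Loxl2*. Counts per gene do not separate splice forms, among them the known variants of *Plod2*.

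Libraries were deep but the contralateral veins were uneven. Total counts ran from 20254173 to 29913427 in contralateral veins, 23676215 to 67457501 in early AVFs, 27021483 to 33395623 in mid AVFs and 27855449 to 36879746 in late AVFs. The rank correlation between libraries of a group had a median of 0.678 in contralateral veins, against 0.867, 0.956 and 0.953 in early, mid and late AVFs. In contralateral veins 28, 31, 34 and 632, 22.5%, 17.5%, 13.5% and 15.7% of the tested genes had 0 counts, while no AVF exceeded 4.7%. Several members were nearly missing from single veins, so the test of each member against contralateral veins is given for all 25 libraries and again without these 4 veins, a choice made after the data were seen that leaves 3 contralateral veins. Levels are in CPM, the counts of a gene relative to all counts of its library after TMM scaling, and a gene was called when edgeR's quasi-likelihood test gave an adjusted p (Benjamini-Hochberg over all tested genes) below 0.01 with a change of at least 1 on the log2 scale. Contralateral veins are shared by the 3 comparisons, whose values are therefore not independent. Each library is labelled as a separate vessel, and p-values measure the spread between these vessels.

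Contralateral veins held *Loxl1* and *Lox* as the most abundant members, and the mean level of 7 members in early AVFs and of all 8 in mid and late AVFs was higher than in veins. In early AVFs, *Lox*, *Loxl2* and *Plod2* were called higher, 3 of 8 members, where 6.17% of all tested genes were called higher. In mid AVFs *Lox* and *Loxl1* were called, 2 of 8 beside 2.74% of all genes, and in late AVFs the same genes, *Lox* and *Loxl1*, 2 of 8 beside 2.49%. No member was called lower, where 6.45%, 3.31% and 2.85% of all genes were. The median log2 difference of the 8 members from contralateral veins was 1.35 (early), 1.45 (mid) and 1.44 (late), against -0.01, -0.10 and -0.09 over all tested genes.

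*Lox*, the family's founding enzyme, lay between 18.9 and 317.2 CPM in contralateral veins with a median of 154.8. Early AVFs ran from 166.9 to 895.0 CPM with a median of 679.8. Mid AVFs held 439.8 (AVF 15), 602.9 (AVF 12), 680.6 (AVF 9), 766.9 (AVF 14) and 1022 CPM (AVF 13), and late AVFs 492.8 (AVF 23), 507.0 (AVF 16), 627.0 (AVF 17), 627.1 (AVF 19) and 718.8 CPM (AVF 24). Every mid and late AVF was above every contralateral vein. In the early group, AVFs 6 and 7 (166.9 and 207.0 CPM) fell within the range of the veins and the other 6 exceeded it. The log2 fold changes were 1.82 (SE 0.40, edgeR adjusted p = 0.00157) early, 2.14 (SE 0.44, 0.00148) mid and 1.90 (SE 0.44, 0.00475) late. Without the 4 sparse veins they were 1.66 (adjusted p = 0.0109), 1.98 (0.0084) and 1.74 (0.0181), so that the call held in mid AVFs only. The late call was also lost without contralateral vein 35, AVF 19 or AVF 24 in turn.

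*Loxl1*, the oxidase of elastic fibers, had the highest mean of the oxidases per length in contralateral veins and was called in mid and late AVFs. Contralateral veins ranged from 76.32 to 306.0 CPM with a median of 157.9, and early AVFs from 122.3 to 397.9 CPM with a median of 276.6. Mid AVFs held 255.7 (AVF 15), 403.0 (AVF 9), 424.1 (AVF 12), 462.6 (AVF 13) and 471.8 CPM (AVF 14), and late AVFs 363.6 (AVF 16), 388.2 (AVF 24), 399.6 (AVF 23), 423.4 (AVF 17) and 442.2 CPM (AVF 19). The late AVFs were all above the veins, the mid AVFs all but AVF 15, and the early AVFs overlapped them widely. The log2 fold change was 0.57 early (SE 0.25, edgeR adjusted p = 0.10), and 1.18 both mid (SE 0.28, 0.00495) and late (SE 0.28, 0.00552). The mid and late calls held without the 4 sparse veins at 1.56 (adjusted p = 0.00158) and 1.56 (0.00174), and the early difference was 0.95 (0.0154), not called. Leaving out single libraries, the mid call held in 18 and the late call in 20 of 25 fits, with adjusted p up to 0.0241 and 0.0235. Libraries whose removal ended the mid call were vein 35 and AVFs 9, 12, 13, 14, 19 and 23, and those that ended the late call were vein 35 and AVFs 13, 17, 19 and 23.

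*Loxl2*, which acts on collagen IV among other substrates, had its highest mean in early AVFs. Contralateral veins ran from 2.80 to 47.02 CPM with a median of 23.32, and early AVFs from 24.4 (AVF 7) to 200.9 CPM (AVF 3) with a median of 121.0. Mid AVFs held 57.77, 75.47, 88.05, 100.3 and 109.3 CPM in AVFs 9, 13, 15, 12 and 14, and late AVFs 56.34, 60.39, 68.37, 83.71 and 97.28 CPM in AVFs 16, 24, 23, 17 and 19. All mid and late AVFs exceeded all veins, and 7 of 8 early AVFs exceeded the highest vein, AVF 6 (49.64 CPM) narrowly, while AVF 7 did not. The log2 fold changes were 2.36 early (SE 0.48, edgeR adjusted p = 0.000756), 1.93 mid (SE 0.51, 0.0124) and 1.70 late (SE 0.51, 0.0299), of which the early one was called. That call held in each of 25 fits without 1 library and without the 4 sparse veins (2.46, adjusted p = 0.000485), where mid AVFs were called too (2.03, 0.00468) and late AVFs were not (1.80, 0.0104). The mid difference was also called without vein 28 or 34 or early AVF 3, 6 or 7. Late against early AVFs gave -0.66 (adjusted p = 0.685), which did not pass the test.

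*Loxl3* showed the same position with little certainty in the test of all libraries. It had 1 count in contralateral vein 31 and 3 counts in vein 28, and 9.38 (vein 35), 27.02 (vein 632), 35.56 (vein 633), 41.6 (vein 27) and 58.12 CPM (vein 34) in the rest. Early AVFs ran from 46.18 to 101.5 CPM with a median of 81.36, mid AVFs from 63.86 to 92.79 CPM and late AVFs from 67.29 to 119.9 CPM. Mid and late AVFs were all above the veins and 7 of 8 early AVFs were above the highest vein. The log2 fold changes of 1.70 (SE 0.68, edgeR adjusted p = 0.0757), 1.72 (SE 0.74, 0.134) and 1.81 (SE 0.74, 0.119) were not called. Without the 4 sparse veins, 2 of which are the near-empty ones, they were 1.47 (0.00212), 1.5 (0.00474) and 1.59 (0.00353), each called.

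*Loxl4* was the least abundant member per length in every group and was called nowhere. Contralateral veins spanned 0 counts (vein 31), 2 counts (vein 35) and 9 counts (vein 28) up to 45.35 CPM in vein 34, with 9.47, 11.13 and 12.55 CPM in veins 27, 632 and 633. Early AVFs ran from 4.46 to 13.03 CPM with a median of 8.35, mid AVFs from 8.30 to 16.57 CPM and late AVFs from 8.34 to 22.9 CPM. All groups overlapped. The log2 differences were -0.37 (SE 0.85, edgeR adjusted p = 0.806), 0.15 (SE 0.96, 0.951) and 0.30, and without the 4 sparse veins, which include vein 34, the early one turned positive at 0.26 (0.803), beside 0.77 (0.49) mid and 0.93 (0.408) late.

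*Plod2*, the telopeptide hydroxylase, was the hydroxylase with the largest log2 differences when all 25 libraries were used, while without the 4 sparse veins *Plod3* had the largest early and *Plod1* the largest late one. Contralateral veins held 6 counts or 0.37 CPM (vein 28), 13.17 (vein 34), 21.46 (vein 31), 23.32 (vein 632), 29.41 (vein 633), 43.41 (vein 35) and 116.5 CPM (vein 27). Early AVFs ran from 41.82 (AVF 7) to 208.7 CPM (AVF 3) with a median of 141.1. Mid AVFs held 120.0, 132.6, 143.7, 185.7 and 229.8 CPM in AVFs 9, 14, 12, 15 and 13, and late AVFs 105.4, 114.3, 134.0, 143.6 and 155.6 CPM in AVFs 19, 24, 23, 17 and 16. Vein 27 lay below every mid AVF but above late AVFs 19 and 24, vein 35 lay just above early AVF 7, and the other veins were below all AVFs. The log2 fold changes were 1.94 early (SE 0.54, edgeR adjusted p = 0.00983, called), 2.20 mid (SE 0.59, 0.0128) and 1.88 late (SE 0.58, 0.0344). The early call stood at the edge of the threshold: it held in 3 of 25 fits without 1 library, those without vein 27, vein 28 or early AVF 7, with adjusted p between 0.000573 and 0.0221, and was lost without the 4 sparse veins (1.12, 0.0314), where the mid (1.37, 0.0218) and late differences (1.06, 0.0698) were not called either. Without vein 27 or vein 28 alone, the mid and late differences were called as well.

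*Plod1* and *Plod3* were not called with all libraries, and both had scattered levels in contralateral veins. *Plod1* in veins ran from 35.28 to 294.0 CPM with a median of 64.35, and the 2 highest were the sparse veins 31 (179.5 CPM) and 28 (294.0 CPM). Early AVFs ran from 75.22 to 161.8 CPM with a median of 127.7, mid AVFs from 106.7 to 146.1 CPM and late AVFs from 105.2 to 199.9 CPM. Its log2 differences were 0.25 (SE 0.34, edgeR adjusted p = 0.655), 0.31 (SE 0.38, 0.679) and 0.43 (adjusted p = 0.529), and without the 4 sparse veins 1.00 (0.0017), 1.06 (0.00316) and 1.19 (0.00154), each called. *Plod3* in veins ran from 19.33 to 114.2 CPM with a median of 53.06. Early AVFs ran from 81.2 to 171.9 CPM with a median of 124.8, mid ones from 87.5 to 115.0 CPM and late ones from 71.81 to 112.8 CPM. Its values were 1.00 (SE 0.29, adjusted p = 0.0128), 0.66 (SE 0.32, 0.191) and 0.48 (adjusted p = 0.375), and without the 4 veins 1.53 (7.36e-05), 1.18 (0.00214) and 1.01 (0.0068), each called. The early difference of *Plod3* was also called without vein 31, vein 632, early AVF 1 or late AVF 17 alone. The calls for these genes thus depended on which contralateral veins were counted, and that of early *Plod3* also on single AVFs, while the signs did not.

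The RefSeq table (GRCm38.p6) held promoters for 3 of the 8 members, *Plod1*, *Plod3* and *Loxl4*, which are 3 of the 4 members that passed the call rule in no comparison of all libraries. The 250 bases upstream of each RefSeq start are shown to describe these genes by sequence. For *Plod1* and *Loxl4* the RefSeq start differs by a few bases from the GENCODE start, so the *Loxl4* stretch runs slightly into the gene as placed above and that of *Plod1* stops short of it. Capitals mark 4 motifs searched on both strands: the GC box, spelled GGGCGG, the box named CCAAT after its letters, the TATA box in the form TATAAA, and the core of the hypoxia response element, spelled ACGTG. A match on the other strand reads as the reverse complement.
Plod1: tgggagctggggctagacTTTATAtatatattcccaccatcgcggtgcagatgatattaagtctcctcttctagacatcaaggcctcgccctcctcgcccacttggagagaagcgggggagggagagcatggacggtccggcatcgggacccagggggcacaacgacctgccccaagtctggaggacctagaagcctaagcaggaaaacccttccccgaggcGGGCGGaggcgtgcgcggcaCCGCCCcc
Plod3: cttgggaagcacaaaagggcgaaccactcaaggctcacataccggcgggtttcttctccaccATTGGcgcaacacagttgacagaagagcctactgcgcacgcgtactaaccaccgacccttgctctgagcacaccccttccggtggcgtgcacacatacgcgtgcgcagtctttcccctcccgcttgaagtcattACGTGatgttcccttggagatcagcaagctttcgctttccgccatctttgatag
Loxl4: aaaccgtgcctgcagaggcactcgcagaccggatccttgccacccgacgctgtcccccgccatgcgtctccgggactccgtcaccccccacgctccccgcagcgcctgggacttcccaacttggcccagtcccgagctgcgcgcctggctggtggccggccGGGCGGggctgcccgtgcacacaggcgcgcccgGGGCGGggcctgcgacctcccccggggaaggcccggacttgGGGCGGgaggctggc
The *Plod1* sequence (chr4:147936777-147937026, minus strand) held 2 GC boxes, 1 TATA box, on the other strand, and 16 CpG dinucleotides at 61.6% G+C. The *Plod3* sequence (chr5:136986769-136987018, plus strand) held 1 CCAAT box, on the other strand, and 1 hypoxia response core at 55.6% G+C with 17 CpG. The *Loxl4* sequence (chr19:42612807-42613056, minus strand) held 3 GC boxes and 27 CpG at 76.0% G+C. Among all 32851 promoters of this length, 32.7% held the GC box, 33.8% the CCAAT box, 12.4% the TATA box and 16.6% the hypoxia core, with a median of 52.4% G+C and 6 CpG. All 3 promoters were thus richer in G+C and CpG than the median promoter. A match describes letters only, not binding of a factor.

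**Figure D1:**
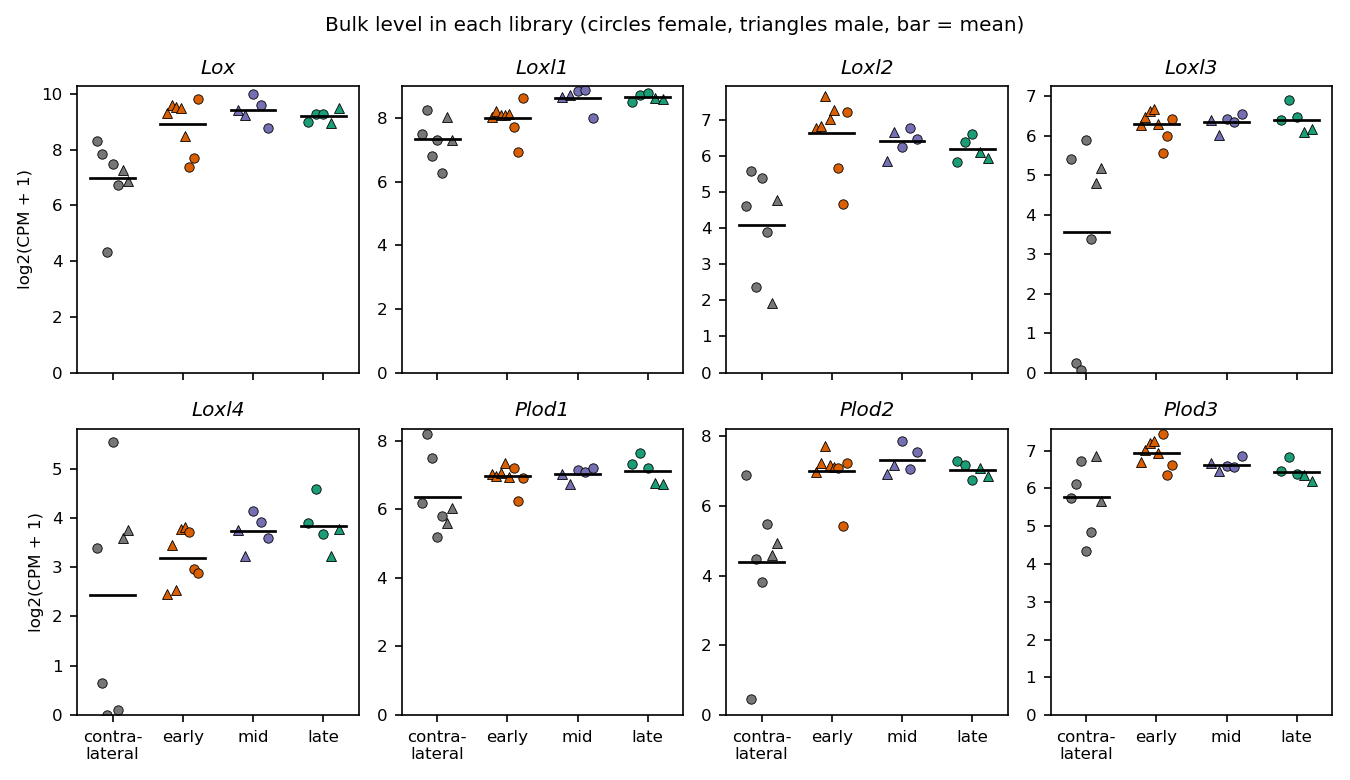
Level of each member in every bulk library as log2(CPM + 1), by group, with circles for females, triangles for males and a bar at the mean of the logged values. The mid and late AVFs lie above all contralateral veins for *Lox*, *Loxl2* and *Loxl3*, and single veins near the floor are seen for *Loxl3*, *Loxl4* and *Plod2*.

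Complete separation of the groups gave a second count that does not rest on the fit. No member had every early AVF above every contralateral vein, where 4.46% of all tested genes did. In mid AVFs 4 of 8 members did (*Lox*, *Loxl2*, *Loxl3* and *Plod2*), beside 7.32% of all genes, and in late AVFs also 4 (*Lox*, *Loxl1*, *Loxl2* and *Loxl3*), beside 6.25%. Without the 4 sparse veins, 4 members were called higher early, beside 9.35% of all genes, 6 at mid, beside 5.73%, and 4 at late time points, beside 5.05%. The genes called in early and late AVFs were mostly not those of the comparison of all libraries: *Loxl2* alone was called in both sets in early AVFs and *Loxl1* alone in late AVFs. In mid AVFs *Lox* and *Loxl1* were called in both.

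**Figure D2:**
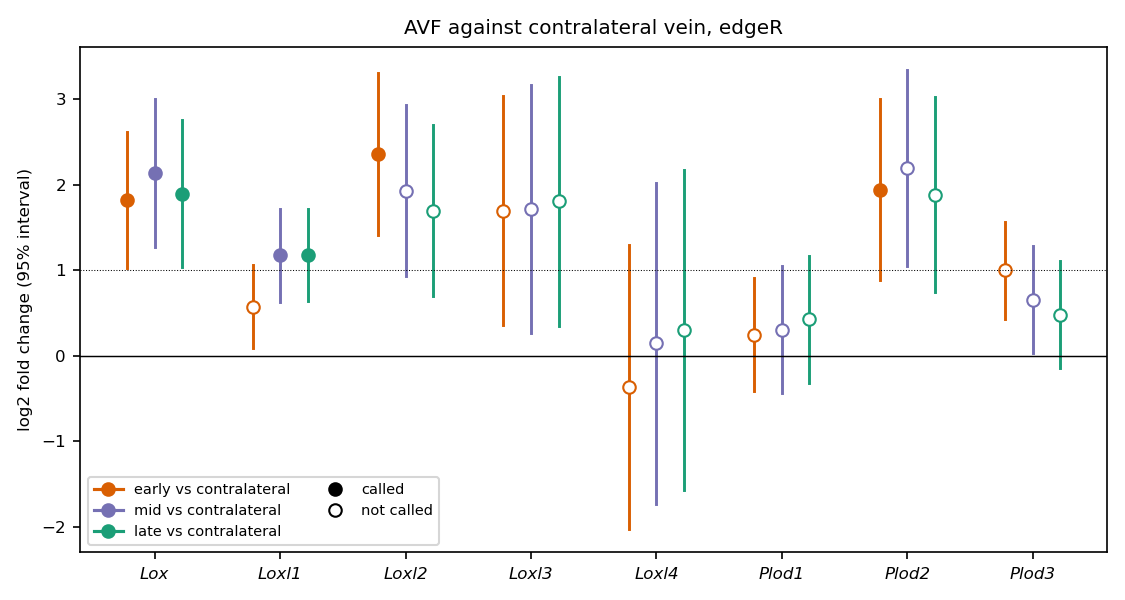
Log2 fold change of each member against contralateral veins at the 3 time points from edgeR, with 95% intervals, for all 25 libraries. Filled points mark calls; *Loxl3*, *Loxl4* and *Plod2* have the widest intervals.

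Between AVF time points no member was called by edgeR or DESeq2 or under any other alternative. Among all tested genes edgeR called 1 between mid and early AVFs (0.00789%) and 381 between late and early AVFs (3.01%). The first count was not stable, with 411 genes by DESeq2, 482 by edgeR at an adjusted p of 0.05 and 0 to 305 leaving out single libraries, and the second was 705 by DESeq2. Between late and mid AVFs edgeR called 0 genes and DESeq2 1. Only *Loxl1* reached an unadjusted p under 0.05, being higher than in early AVFs by 0.60 on the log2 scale in mid AVFs (SE 0.27, edgeR adjusted p = 0.303) and by 0.61 in late AVFs (edgeR adjusted p = 0.238). *Plod3* in late against early AVFs gave -0.52 (adjusted p = 0.52). No member passed an adjusted p of 0.05 for a sex difference between groups either, with unadjusted p from 0.276 to 0.983 for the interaction of sex and group in edgeR, 0 of 8 under 0.05, and 0 passing with DESeq2. At an adjusted p below 0.05 with no limit on the size of the change, the rule for this interaction, edgeR passed 13 of all tested genes (24 of a larger set with filterByExpr) and DESeq2 166.

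Per length of transcript, the order of the members differed between veins and AVFs. The mean CPM per kilobase of exon (RPKM) in contralateral veins put *Loxl1* (54.3) before *Lox* (33.4), *Plod1* (15.8), *Plod3* (13.9), *Plod2* (6.56), *Loxl3* (5.34), *Loxl2* (4.19) and *Loxl4* (2.68), and every neighbouring pair overlapped between libraries. Mid AVFs ran *Lox* (147.0), *Loxl1* (122.4), *Plod2* (30.1), *Plod3* (21.8), *Plod1* (19.4), *Loxl3* (17.6), *Loxl2* (15.9) and *Loxl4* (2.97). There, as in late AVFs, the steps from *Loxl1* to *Plod2* and from *Loxl2* to *Loxl4* were free of overlap, and all others overlapped. In early AVFs *Lox* (118.3) stood highest, followed by *Loxl1* (80.5) and *Plod3* (27.7), and only the step from *Loxl3* (17.3) to *Loxl4* (2.08) was free of overlap. *Lox* exceeded *Loxl1* per length in 1 of 7 contralateral veins, 6 of 8 early, 4 of 5 mid and 2 of 5 late AVFs, with median ratios of 0.515, 1.61, 1.17 and 0.979. *Plod2* exceeded *Plod1* in 1 of 7 veins, 7 of 8 early, 5 of 5 mid and 3 of 5 late AVFs, with median ratios of 0.573, 1.31, 1.59 and 1.24. Without the 4 sparse veins the vein order was *Loxl1* (41.9), *Lox* (37.5), *Plod2* (11.7), *Plod3* (9.67), *Plod1* (9.39), *Loxl3* (6.27), *Loxl2* (3.93) and *Loxl4* (1.75), so that *Plod2* stood first among the hydroxylases, as in mid AVFs.

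The make-up of each family was computed from the same values. *Lox* made up 31.6% ± 12.5 (SD, n = 7) of the oxidase RPKM in contralateral veins and 46.9% (n = 8), 47.4% (n = 5) and 43.9% (n = 5) in early, mid and late AVFs, while *Loxl1* made up 56.8% ± 16.9, 35.5%, 40.1% and 43.5%. *Loxl2* made up 4.09% in veins and 8.67%, 5.45% and 4.78% in AVFs. *Plod2* made up 20.9% ± 17.0 (SD, n = 7) of the hydroxylase RPKM in veins, from 0.118% to 49.2%, and 34.4%, 41.7% and 37.7% in AVFs, and *Plod1* 40.4% ± 18.1, 26.5%, 27.4% and 32.4%. In the 3 veins that were not sparse the shares were 40.1% for *Lox*, 47% for *Loxl1*, 4.63% for *Loxl2*, 35.4% ± 14.2 for *Plod2* and 32.3% ± 7.12 for *Plod1*. The *Plod2* shares of these veins, 20.9% to 49.2%, overlapped those of early AVFs, 21.1% to 42.8%. Summed oxidase RPKM was 99.9 ± 42.8 in veins and 239.7 ± 90.1, 305.9 ± 68.0 and 282.3 ± 28.9 in early, mid and late AVFs, against 36.2 ± 17.1, 71.7 ± 16.8, 71.4 ± 10.9 and 64.7 ± 11.5 for the hydroxylases. In the 3 veins the sums were 91.3 ± 43.5 and 30.8 ± 11.6. These shares and sums are descriptions and were not tested.

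Marker genes of the vessel's cell types differed in level between the same groups. The summed CPM of 7 fibroblast markers, the cells in which most members were found by single-cell sequencing, was 12100 to 22300 in contralateral veins, while AVFs had 1190 to 8420 (early), 7720 to 10000 (mid) and 8180 to 13000 (late). The 8 smooth muscle markers summed to 2990 to 7150 in veins and 351 to 1280 over all AVFs, and the 8 endothelial markers to 2240 to 3890 in veins and 320 to 808 in AVFs. The 12 monocyte and macrophage markers went the other way, 703 to 2160 in veins against 3480 to 11900, 2460 to 3390 and 1970 to 3680 in early, mid and late AVFs. Against veins, the AVF groups thus had higher mean *Lox*, *Loxl1*, *Loxl2* and *Plod2* beside lower sums of fibroblast markers. Among AVFs the mid group had a higher median fibroblast marker sum than the early one (9410 against 3920). Its means of *Lox*, *Loxl1*, *Loxl3*, *Loxl4*, *Plod1* and *Plod2* were higher too, none of them called. *Loxl2* and *Plod3* went the other way, from 116.1 to 86.18 and from 125.2 to 98.61 CPM, also not called. AVFs 6 and 7, the early AVFs lowest in *Lox*, had the lowest fibroblast marker sums of the group, 1193 and 1592 CPM. Tissue from around the vessel differed too: 7 skeletal muscle markers summed to 0.209 to 30.8 CPM in veins and up to 7680 CPM in a late AVF, and 5 thyroid or parathyroid markers to at most 10.8 CPM in veins and up to 14000 CPM in an early AVF. Shares of recovered cells in the single-cell libraries, which digestion also sets, did not follow these sums in every type: fibroblasts were 29.3%, 8.5% and 33.2% of cells in contralateral, early and late libraries, smooth muscle or mural cells 0.49%, 4.54% and 8.59%, endothelial cells 12.8%, 1.43% and 1.2%, and monocytes and macrophages 11.4%, 47.4% and 31.1%. The study itself reported a larger fibroblast share in each of its groups than the 8.5% found here in early AVFs. It also reported a larger smooth muscle share in contralateral veins than the 0.49% found here. Why the shares differ was not tested. In whole vessels fewer cells of a type and less RNA per cell cannot be told apart, and the part of cell make-up in these results was not tested.

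The genes of the same pathway were read from lists set by role. Of 10 crosslinked substrates, all tested, 2 were called higher early, 6 at mid and 5 at late time points, with none lower and median log2 differences of 0.82, 1.84 and 1.81. Counts for this and the lists that follow stand beside 6.17%, 2.74% and 2.49% of all tested genes called higher. The elastin gene *Eln* was 618.7 ± 326.3 CPM in veins (n = 7), 674.1 ± 587.0 early (n = 8), 2807 ± 1277 mid (n = 5) and 2668 ± 254.4 CPM late (n = 5). It was unlike *Lox* in that its early log2 difference was 0.13 (SE 0.40, edgeR adjusted p = 0.862), followed by 2.18 (SE 0.45, 0.0015) mid and 2.11 (SE 0.45, 0.00242) late, and it was higher in late than early AVFs by 1.99 (SE 0.43, 0.00518). *Col4a1*, a basement membrane collagen, was 233.5 CPM in veins and 372.2, 811.3 and 1150 CPM in AVFs, with log2 differences of 0.68 (adjusted p = 0.0247), 1.80 (1.05e-05) and 2.30 (5.75e-07). Its partner chain *Col4a2* was called in late AVFs (2.39, 0.00196).

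Among fibril-regulating collagens, *Col5a1* was called in mid AVFs (1.98, edgeR adjusted p = 0.00452), *Col5a2* in mid (1.64, 0.000989) and late AVFs (1.36, 0.0060), and *Col5a3* in early (2.55, 0.00988) and mid AVFs (3.02, 0.00903). *Col11a1*, a collagen of cartilage fibrils, averaged 0.39 CPM in veins and 11.2, 34.1 and 31.8 CPM in early, mid and late AVFs. It was called at all 3 time points. The 5 cartilage markers summed to 0 CPM in every vein. In AVFs their sums were 0 to 17.9 (early), 9.2 to 45.8 (mid) and 17.7 to 61.9 CPM (late). Their part in the *Col11a1* levels was not tested. The main fibrillar chain *Col1a1*, not called, gave 0.18 (0.831), 1.41 (0.0833) and 1.28 (0.124).

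Of 15 further genes of collagen lysine and proline hydroxylation and folding, 13 were tested and 1, 2 and 1 were called higher in early, mid and late AVFs, with medians of 0.28, 0.24 and 0.08, and the early count is near the share of all genes. *P4ha3*, a catalytic subunit of prolyl 4-hydroxylase, averaged 0.46 ± 0.99 CPM in veins and 46.0, 67.1 and 54.9 CPM in early, mid and late AVFs, every AVF above every vein (adjusted p = 1.52e-05, 2.59e-05 and 4.62e-05). *Fkbp10*, a chaperone that works with PLOD2, rose in mid AVFs by 1.06 (SE 0.26, edgeR adjusted p = 0.00706) and differed by 0.80 (0.0148) early and 0.81 (0.0415) late. *P4ha1*, the main prolyl hydroxylase subunit and chosen here for contrast, held 147.9 CPM in veins and 157.5, 143.3 and 152.8 CPM in AVFs.

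Of 13 genes that activate or anchor LOX, 12 were tested and 3, 3 and 2 were called higher. *Fn1*, fibronectin, rose by 1.3 (adjusted p = 0.000797), 2.30 (6.33e-06) and 2.41 (4.22e-06). *Postn*, periostin, rose by 1.86 (0.00189), 2.62 (0.000321) and 1.78 (0.00999). *Fbn1*, the microfibril protein fibrillin, was called in mid AVFs (1.60, 0.00288), and *Atox1*, a copper chaperone, in early AVFs (1.75, 0.00326). Late against early AVFs, *Fbln5*, an elastic fiber protein that binds LOXL1, was higher by 2.15 (SE 0.36, edgeR adjusted p = 0.00149) and *Atox1* fell by 2.17 (SE 0.49, 0.0065). *Bmp1*, which cleaves the proenzyme, was not called, at 0.83 (0.283), 1.17 (0.207) and 0.77 (0.447). Of 12 hypoxia targets, a class to which *Lox* and *Plod2* are often assigned, 11 were tested: *Ldha* was called higher (1.31, 9.03e-06) and *Ndrg1* lower (-1.04, 0.00273) in early AVFs, and none in mid or late AVFs. The medians of that list were -0.60, -0.25 and -0.38, below those of the members.

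Without the 4 sparse veins, 1, 5 and 3 of the 10 substrates were called higher in early, mid and late AVFs, 1, 2 and 1 of the 13 hydroxylation and folding genes and 1, 2 and 1 of the 12 genes that activate or anchor LOX, and the hypoxia targets gave the same counts as with all libraries. The median log2 differences moved to 0.55, 0.57 and 0.45 for the hydroxylation and folding genes and to -0.36, -0.55 and -0.37 for the hypoxia targets. Beside 9.35%, 5.73% and 5.05% of all genes called higher in that fit, the early counts of these lists are near or below the share of all genes. Lost by edgeR at an adjusted p of 0.01 were *Eln* in mid (2.01, adjusted p = 0.0175) and late AVFs (1.94, 0.0226), *Col11a1* in early (4.01, 0.017), *Col5a1* in mid (2.06, 0.0236) and *Col5a2* in late AVFs (1.34, 0.0267). *Postn* was lost in early (1.82, 0.0292) and late AVFs (1.75, 0.0599), *Atox1* in early (1.60, 0.0459) and *Fbn1* in mid AVFs (1.89, 0.0113), while *Col4a2* was gained in mid AVFs (1.54, 0.00592). The log2 differences of *Postn*, *Fbn1* and *Col5a1* were thus about as large as, or larger than, those with all libraries. No sign changed among these.

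Likeness of pattern was measured by Pearson's r of log2 levels over the 25 bulk libraries, which share their group differences and their sparse veins, and is given as a description. *Lox* was closest to *Cd276* (0.907), *Thbs4* (0.888) and *Runx1* (0.883), and *Loxl1* to *Col5a1* (0.88), *Fbn1* (0.841) and *Myh10* (0.839). *Loxl2* was closest to *Col5a3* (0.936), *Dram1* (0.931) and *N4bp2* (0.892), and *Plod2* to *Nsf* (0.945), *Arhgap30* (0.941) and *Mmp14* (0.94). *Loxl3* was closest to *Jpt2* (0.985), *Igsf8* (0.984) and *Dus1l* (0.981), and *Loxl4* to *Pck2* (0.949), *Alg6* (0.949) and *9930104L06Rik* (0.947). *Plod1* was closest to *Tox4* (0.92), *Hdlbp* (0.899) and *Itga4* (0.881), and *Plod3* to *Syngr2* (0.885), *Nrros* (0.88) and *Plek* (0.866). Among the members, *Lox* went most closely with *Loxl2* (0.817) and *Loxl1* (0.805), *Loxl3* with *Loxl4* (0.827), and *Plod1* with *Plod3* (0.642), while *Loxl3* and *Plod1* gave -0.223.

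The single-cell libraries place the members in cell types. Of 26438 deposited barcodes, 16893 passed the filters, 6319 from contralateral veins, 4753 from early and 5821 from late AVFs, with median depths of 2751, 8951 and 15420 UMIs per cell. The study's methods give later mean harvest days for the early and late single-cell AVFs than for the bulk AVFs of the same names, so the time points of the assays are not the same. Libraries shared 14 to 19 barcodes. With 1 library per condition there is no test between conditions: levels are UMIs summed over the cells of a lineage and scaled to CPM of all UMIs of that lineage, and the 95% exact Poisson intervals cover counting error only. Cell types were rebuilt here from marker genes, and 1084 cells of cluster 6 stayed unnamed, led by *Pth*, *S100a8* and *Col1a1* with a depth 0.103 of that of their libraries. Its leading genes also held *Postn*, *Cthrc1* and *Col3a1*, and 539 of its cells were early, beside 404 named early fibroblasts. At the other resolution a similar unnamed cluster of 1143 cells had fibroblast as its closest type. Such cells are outside the fibroblast levels and shares below, and what they are was not tested. Cells of contralateral and AVF fibroblasts fell in different clusters: 1673 of 1853 contralateral fibroblasts in one, 401 of 404 early and 1882 of 1935 late fibroblasts in another. The libraries were clustered together without batch correction, and the median depth of fibroblasts was 4411, 31840 and 25080 UMIs (contralateral, early and late). This split by condition can therefore not be told apart from one by library or depth.

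Fibroblasts were the main source of most members. They held 90.1% of the *Lox* UMIs, 95.8% of those of *Loxl1*, 91.4% of those of *Loxl2*, 83.9% of those of *Loxl3*, 95.9% of those of *Loxl4* and 79.6% of those of *Plod2* in the contralateral library. In early AVFs the shares were 69.5%, 72.7%, 83.8%, 60%, 80.3% and 75.2%. In late AVFs they were 67.1%, 83.5%, 90.3%, 75.3%, 93.1% and 78.4%. For *Plod1* and *Plod3* the early library was the exception: fibroblasts held 64.2% and 62.2% of their UMIs in contralateral veins and 62.5% and 61.3% in late AVFs, but 32.6% and 32.8% in early AVFs, where monocytes and macrophages held 53.1% and 50.8%. Shares follow the number and depth of cells recovered by digestion, and how cells were named, as well as the level per cell. Fibroblasts were a smaller share of early cells here than in the study's own clustering.

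**Figure D3:**
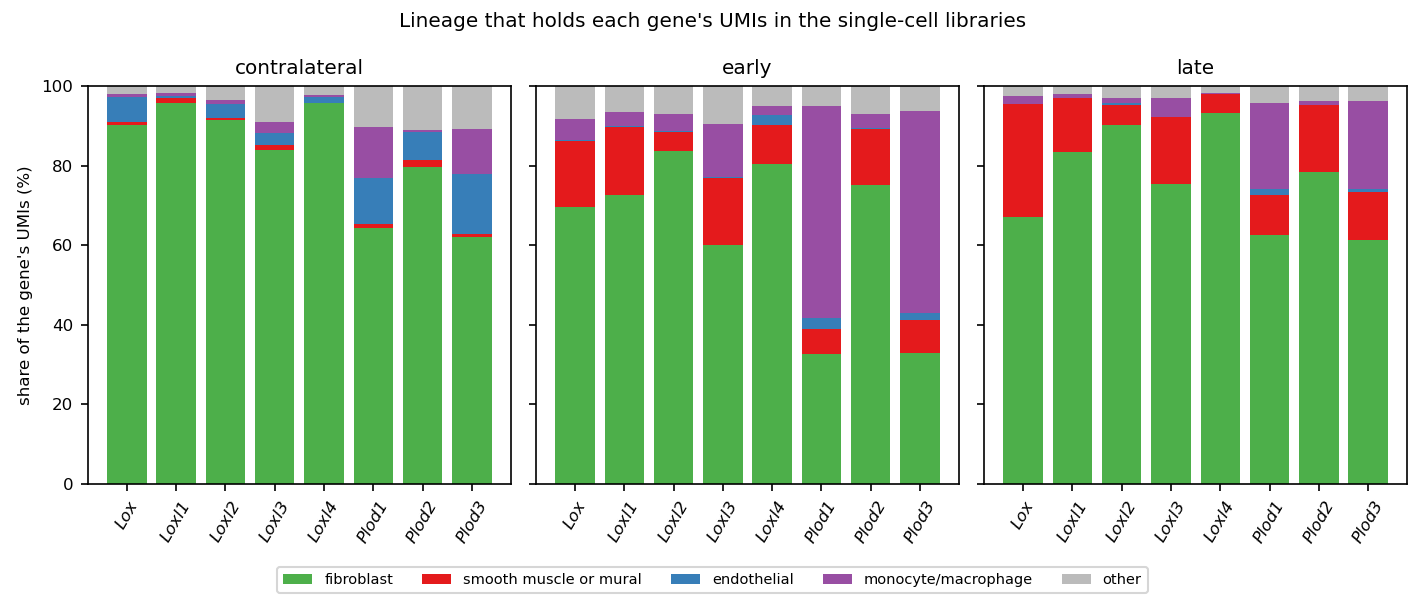
Share of each member's UMIs contributed by each lineage in the 3 single-cell libraries, in percent. Fibroblasts hold most *Lox*, *Loxl1*, *Loxl2*, *Loxl4* and *Plod2* UMIs in each library, and monocytes and macrophages hold about as much *Plod1* and *Plod3* as all other cells together in the early library.

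Within fibroblasts, *Lox* was 173.5 CPM (95% interval 166.4 to 180.8) in contralateral veins, 652.5 (637.8 to 667.5) in early and 279.9 (275.2 to 284.6) in late AVFs. *Plod2* had the same order, 73.36 (68.77 to 78.17), 307.0 (296.9 to 317.3) and 185.2 (181.4 to 189.1), and so did *Loxl2*, 139.5 (133.2 to 146.1), 327.5 (317.0 to 338.1) and 180.2 (176.5 to 184.0). All 3 were highest in the early library, as were *Loxl1*, *Loxl3* and *Plod3*. The bulk means of *Lox* and *Plod2* were highest in mid AVFs, for which there was no single-cell library, and the early groups of both assays differ in harvest day. *Loxl1* was 279.1 (270.1 to 288.3), 494.2 (481.4 to 507.3) and 471.8 (465.7 to 477.9), at nearly the early level in the late library. *Loxl3* was 48.01, 65.79 and 41.81 CPM and *Plod3* 52.78, 78.52 and 53.71 CPM, each with overlapping or nearly touching intervals between contralateral and late libraries. *Plod1* was 72.82 (68.25 to 77.61) and 73.69 (68.79 to 78.85) in contralateral and early fibroblasts and 41.94 (40.15 to 43.78) in late ones. *Loxl4* was low throughout, 16.03 (13.92 to 18.36), 8.61 (6.99 to 10.49) and 11.85 (10.91 to 12.86).

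Smooth muscle and mural cells, 31 in contralateral veins, 216 in early and 500 in late AVFs, were the second source of *Lox* in the AVF libraries. Their *Lox* level was 75.4 CPM (48.3 to 112.2; 24 UMIs), 366.7 (349.9 to 384.1) and 458.7 (447.0 to 470.7), so that in late AVFs it was above that of fibroblasts. Their share of *Lox* UMIs was 0.96%, 16.7% and 28.3%, whereas in the contralateral library endothelial cells held more, 6.28%. *Loxl1* was 128.8 (92.42 to 174.7), 272.1 (257.7 to 287.2) and 295.8 (286.4 to 305.4) CPM and *Plod2* 72.3 (45.8 to 108.4), 133.0 (122.9 to 143.6) and 154.4 (147.7 to 161.4) CPM in these cells. *Loxl2*, in contrast, was 40.83, 42.07 and 38.65 CPM, far below fibroblasts in the AVF libraries. The contralateral values rest on 31 cells.

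Endothelial cells (811, 68 and 70 cells) held *Lox* at 52.85 (44.91 to 61.8), 36.66 (23.72 to 54.12) and 91.06 CPM (66.67 to 121.5). Their *Loxl2* level was 22.22, 14.66 and 79.18 CPM (56.57 to 107.8) and their *Plod1* level 56.89, 108.5 (85.2 to 136.2) and 97.0 CPM. Immune cells, which should lack the oxidases, served as reference. In early AVFs neutrophils held *Lox* at 34.52 (28.45 to 41.51) and *Loxl2* at 14.36 CPM, and T and NK cells 20.36 (13.3 to 29.84) and 6.27 CPM (2.71 to 12.3). The early endothelial intervals (7.03 to 27.0 for *Loxl2*) overlapped those of both references and are not read as expression. Late neutrophils held *Lox* at 33.98 (23.8 to 47.04) and *Loxl2* at 20.76 CPM (13.0 to 31.4), and late T and NK cells 25.15 and 11.5 CPM, all below the endothelial values. Contralateral T and NK cells held 5.19 and 6.57 CPM, and contralateral neutrophils 1 UMI of either gene. Late platelets, on 6 UMIs of either gene, stood at 87.61 CPM (32.15 to 190.7), which overlaps the late endothelial intervals of both genes. The late endothelial values thus lay above neutrophils and T and NK cells but not clearly above platelets. Schwann cells, of which late AVFs held 24, had *Loxl2* at 16.74 CPM in contralateral veins and 176.1 CPM (130.7 to 232.2; 50 UMIs) in late AVFs.

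Monocytes and macrophages (723, 2252 and 1808 cells) carried *Plod1* and *Plod3* and little of the oxidases. *Plod1* was 50.9 (43.88 to 58.72), 43.8 (41.51 to 46.19) and 26.35 CPM (24.45 to 28.36), and *Plod3* 33.84 (28.17 to 40.32), 44.35 (42.04 to 46.75) and 35.48 CPM (33.27 to 37.8). In T and NK cells of the same libraries *Plod1* was 13.83, 7.83 and 7.38 CPM and *Plod3* 7.26, 7.83 and 6.46 CPM, so the macrophage levels lay above that reference. *Lox* in macrophages, 4.60, 18.25 and 13.51 CPM, was no higher than in T and NK cells (5.19, 20.36 and 25.15 CPM) and is read as background. *Plod2* in macrophages, at 1.62, 5.03 and 4.34 CPM, is not read as expression either. T and NK cells held more *Plod2*, 23.86, 7.83 and 24.0 CPM, so they are no background reference for that gene.

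**Figure D4:**
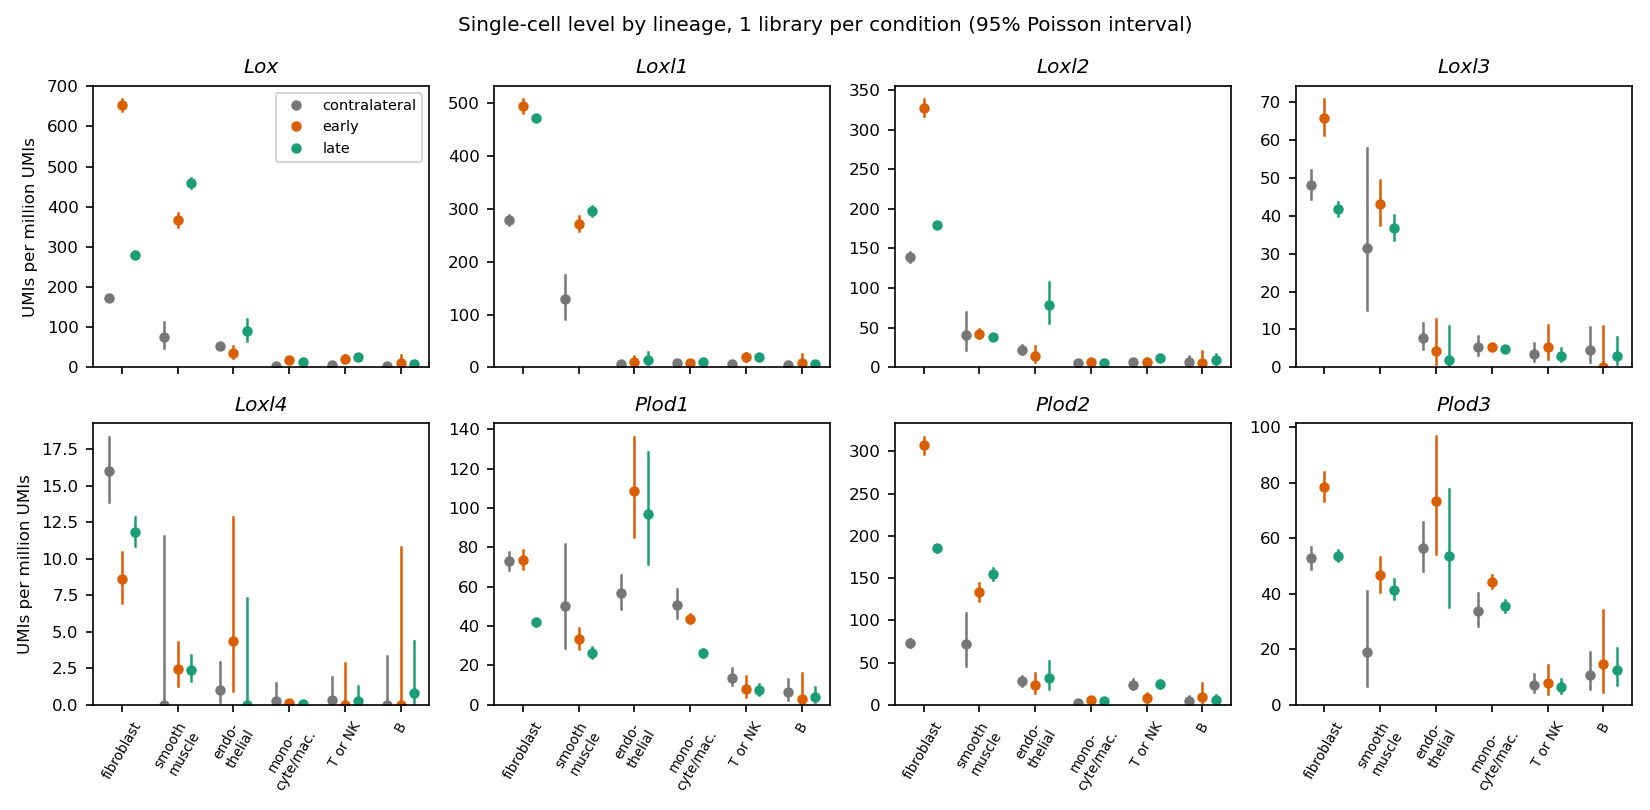
Level in CPM of UMIs of each member in fibroblasts, smooth muscle or mural cells, endothelial cells and monocytes or macrophages of the 3 single-cell libraries, with exact Poisson 95% intervals and T or NK cells as reference. For *Plod2* the T or NK cells are no background reference. *Lox* in fibroblasts goes from 173.5 to 652.5 and 279.9 CPM and in smooth muscle or mural cells from 75.4 to 366.7 and 458.7 CPM.

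Fibroblasts were divided further by markers of quiescent, activated, Pi16 adventitial and tendon-like states, with the members left out of the clustering. A rest of 3 subclusters remained unnamed, the largest, of 661 cells, led by hemoglobin genes with a median of 1195 UMIs, under a rule tightened after the data were seen. Contralateral fibroblasts were 52.6% quiescent and 37.8% unnamed, early ones 69.8% activated, and late ones 54.2% tendon-like and 32% Pi16 adventitial. Of the 619 late Pi16 cells, 604 came from a subcluster in which all 5 Pi16 markers were raised but none was among its 10 leading genes, which were *Saa3*, *Hp*, *Ptx3*, *Rnd1*, *Cxcl5*, *Lcn2* and other genes, several of them inflammatory. *Saa3*, an acute phase gene, was also among the leading genes of the activated and tendon-like subclusters. The activated subcluster was led by *Thbs4* and *Cilp* as well as *Tnc* and *Postn*, and *Cilp* also led the tendon-like one, so these 2 states are not sharply apart. The named states and the conditions therefore overlap little, and only the tendon-like state is 1 subcluster with cells of all 3 libraries in number. Without batch correction, differences of state, library and depth cannot be told apart here.

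*Lox* differed widely between the states of the contralateral and late libraries. In contralateral veins it was 206.9 CPM (197.9 to 216.3; 974 cells) in quiescent and 14.8 CPM (9.18 to 22.7; 21 UMIs in 133 cells) in Pi16 adventitial fibroblasts, at median depths of 7242 and 8748 UMIs per cell. *Loxl1* had the opposite order there, 250.9 CPM in quiescent and 589.5 (550.2 to 630.9) in Pi16 cells, and *Plod1* followed *Lox*, at 82.08 and 25.42 CPM. *Plod2* was 73.17 CPM in quiescent and 73.42 CPM in Pi16 cells. In Pi16 cells of AVFs, *Lox* was 439.1 (403.1 to 477.5; 40 cells) early and 157.1 (151.4 to 163.1; 619 cells) late, *Loxl1* 485.6 and 499.3 CPM and *Plod2* 159.7 and 135.4 CPM. Contralateral and AVF Pi16 cells came from different subclusters, 131 of the 133 contralateral ones from a subcluster that held few AVF cells, so their values are set side by side and are no measure of change within 1 state.

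Activated fibroblasts held *Lox* at 699.6 (681.7 to 717.9; 282 cells) in early and 545.2 CPM (527.0 to 563.8; 208 cells) in late AVFs. Their *Loxl1* was 481.7 and 567.7, *Loxl2* 388.1 and 342.7 and *Plod2* 338.7 and 313.0 CPM. Tendon-like fibroblasts held *Lox* at 663.2 CPM early (57 cells) and 307.4 (300.4 to 314.4; 1049 cells) late, with *Loxl2* at 141.4 and 130.1 CPM. The 43 contralateral cells of this state held *Lox* at 165.2 (129.0 to 208.3) and *Loxl2* at 195.4 CPM (155.9 to 241.9), so that *Lox* was lower than in either AVF library, while the *Loxl2* interval lay above that of the late library and overlapped that of the early one (122.9 to 161.9). In late AVFs, *Lox*, *Loxl2* and *Plod2* were thus highest in the activated state, which was 208 of 1935 fibroblasts, and the tendon-like and Pi16 cells that made up most of the late fibroblasts held less. In each of the 3 named states with at least 20 cells in both AVF libraries, *Lox* was lower in the late library. Quiescent fibroblasts, 4 cells early and 17 late, were too few for a level.

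**Figure D5:**
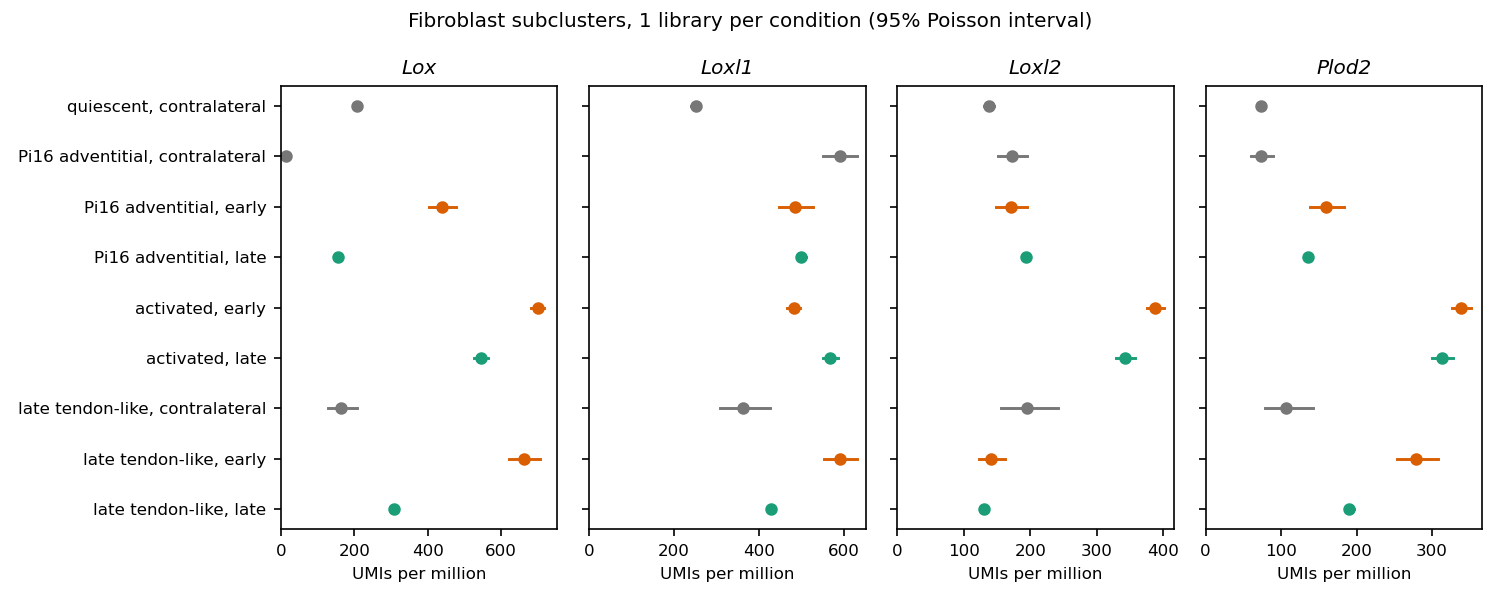
Level in CPM of UMIs of *Lox*, *Loxl1*, *Loxl2* and *Plod2* in the named fibroblast states of each single-cell library, with exact Poisson 95% intervals. *Lox* runs from 14.8 CPM in contralateral Pi16 adventitial to 699.6 CPM in early activated fibroblasts, while *Loxl1* stays between 250.9 and 590.5 CPM.

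Among pathway genes in fibroblasts, *P4ha3* was 1.16, 62.0 and 20.5 CPM, *Eln* 456.3, 1554 and 961.9 CPM and *Postn* 85.5, 3738 and 1111 CPM in the contralateral, early and late libraries. *Fn1* was instead highest in the late library (1425, 2938 and 3778 CPM), *Col4a1* in the contralateral one (291.8, 182.3 and 200.9 CPM), and *Fbln5* was lowest in the early one (386.9, 186.6 and 273.5 CPM). Of 49 genes of the pathway lists, 33 were highest in early, 12 in contralateral and 4 in late fibroblasts. No share over all genes stands beside this count, so it is not read as particular to these lists. In bulk vessels, harvested on other days, the mean level of *Eln* was higher in mid and late AVFs than in early ones.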

How the data were processed

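Bulk libraries were poly(A)-selected from ground vessels by an ultra-low input protocol and sequenced as 150-base read pairs. The authors deposited raw counts per gene (56980 Ensembl identifiers) for 25 libraries; their counting tool, strand setting and annotation are not stated. Identifiers were named through the gene list of the single-cell matrices (32210) or the reference (19962), and 4808 stayed unnamed. For single cells, the authors deposited UMI counts per barcode from Cell Ranger 6.0.2, per the file headers, and their processing notes name STAR.

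Genes with a mean DESeq2-normalised count of at least 100 (12673) were tested in edgeR 4.0.16 (TMM, quasi-likelihood, 1 mean per group, all 25 libraries together). RPKM used union exon lengths of GENCODE M21. The bulk table holds identifiers newer than that annotation, so exon lengths and overlaps may differ from those behind the counts. The members and gene lists were chosen with earlier results of these data known. All members are named, and from each list at most the 6 genes with the smallest adjusted p among those called against contralateral veins, plus *Eln*, *Col1a1*, *Fkbp10* and *Bmp1*, and for each member its 3 most correlated genes; *Col5a3*, *P4ha1* and *Fbln5* were chosen after their values were seen. Cells with 200 to 6000 genes and at most 10% mitochondrial UMIs were clustered in scanpy 1.11.5 (2000 variable genes without members, lists or markers, 12 components, 20 neighbours, resolution 0.5), and clusters were named from fixed markers. Scrublet marked 0, 0.042% and 2.06% of cells in the contralateral, early and late libraries and had not worked in the first pair, so doublets were kept. Alternatives were DESeq2 1.42.0, other size factors and filters, sex as a term, an adjusted p of 0.05, leaving out single libraries or the 4 sparse veins, and for cells a 5% mitochondrial limit, doublet removal and another resolution. The range of total counts in each bulk group and the median depth of each single-cell library are given with the results. Intervals on UMIs cover counting error only. The single-cell libraries were clustered together without batch correction.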

Additional observations from a re-analysis of the deposited data

Results flagged for a closer look

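Of 32 groups of values examined (8 members in 4 bulk groups), 2 held a library set apart from the rest by a gap that is large for the range of its group, 6.25% where chance alone gives about 5%. Both were contralateral veins. *Loxl4* was 45.35 CPM in vein 34, where the next highest vein had 12.55 CPM. *Plod2* was 116.5 CPM in vein 27, where the next had 43.41 CPM. Vein 34 is among the 4 veins with over 10% of tested genes at 0 counts, and vein 27, with 2.86%, is not. Without vein 27 the mid and late differences of *Plod2* from contralateral veins were called.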

How the results depend on the processing

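With all libraries, 3, 2 and 2 members were called against contralateral veins in early, mid and late AVFs. In mid AVFs 4 were called at an adjusted p of 0.05, by DESeq2, with filterByExpr and with every gene of at least 1 count, and 6 without the 4 sparse veins. In late AVFs 4 were called at 0.05 and 4 without the 4 veins. Each of these settings also called more genes in total than the main fit, as given below. Without the 4 veins, 5.73% (mid) and 5.05% (late) of all genes were called higher, against 2.74% and 2.49% with all libraries. Leaving out 1 library gave 2 to 3 early, 1 to 4 mid and 0 to 3 late, the 0 without vein 35 or AVF 19. The cause was not tested.

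Among all 12673 tested genes 1599, 767, 676, 1, 381 and 0 were called (early, mid and late against veins, mid against early, late against early, late against mid). At 0.05 these were 2520, 1421 and 1304 against veins, 482 mid against early and 795 late against early. DESeq2 gave 1366 mid and 1253 late against veins, 411 mid against early, 705 late against early and 1 late against mid. With filterByExpr, of 20076 genes tested, they were 3803, 2823 and 2696 against veins and 0 mid against early. With every gene they were 3938, 2728, 2567 and 208 (late against early). Relative log expression or sex as a term gave 0 for mid against early. Without the 4 veins, of 12852 genes tested, they were 2280 early, 1299 mid and 1114 late against veins, 5 mid against early and 1115 late against early. Leave-one-out ranges were 1370 to 1825, 530 to 955, 432 to 889, 0 to 305, 32 to 549 and 0 to 0.

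Signs changed only for differences that were not called. Late against mid, *Loxl1* was -0.0016 with DESeq2, -0.0074 with relative log expression, -6e-04 with filterByExpr and -0.1259 to 0.0626 leaving out libraries, *Loxl3* -0.0517 to 0.1753, *Loxl4* -0.09 to 0.3063 and *Plod1* -0.014 to 0.2253. Mid against early, *Plod1* was -0.0621 with sex as a term and -0.0225 to 0.1813, and *Loxl3* -0.0492 to 0.1474. Late against early, *Plod2* was 0.0152 with DESeq2, 0.0315 with filterByExpr and -0.1932 to 0.1144, *Lox* -0.0499 to 0.2268 and *Loxl3* -0.0511 to 0.2882. Against veins, *Loxl4* early was 0.2597 without the 4 veins and -0.6725 to 0.6534, and mid -0.1331 to 1.1638. With at most 5% mitochondrial UMIs, *Lox* and *Loxl2* in early fibroblasts were 633.9 and 312.4 CPM and *Loxl1* in late ones 465.0 CPM; 69 of 72 single-cell values moved less than their interval.

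No paired analysis was possible because the groups share no replicate numbers. Low counts in single contralateral veins limit *Loxl3*, *Loxl4* and *Plod2*, and 1 pooled library per condition limits every single-cell comparison.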
